A study of Mus musculus with 12 samples.

Results

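The genes described here encode the enzymes of the tricarboxylic acid (TCA) cycle, the carriers and enzymes that bring pyruvate into it, and the carboxylase, carboxykinase and malic enzymes that add carbon to it or take carbon from it. They were chosen by name, as the rows of the deposited table that carry 1 of 33 listed gene symbols, and all 33 were found among its 19439 entries. The RNA-seq libraries were made, from 0.5 ug of RNA each, from 2 3T3 lines of mouse embryonic fibroblasts, which are cells that grow without limit after repeated passage. One line was wild type for p53 (WT) and the other was p53 -/- (p53-null). Both were kept in DMEM with 25 mM glucose, and for the experiment each was given DMEM with 2 mM L-glutamine (complete) or DMEM without L-glutamine (glutamine-free) for 18 h. The 4 groups (WT complete, WT glutamine-free, p53-null complete and p53-null glutamine-free) held 3 libraries each, 12 in all. Each genotype was 1 line, so a difference between the genotypes cannot be told apart from a difference between the lines. Whether the 3 libraries of a group come from 3 cultures is not stated in the labels. The p-values therefore reflect the scatter among the libraries at hand, and that scatter may be technical.

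The TCA cycle joins acetyl-CoA to oxaloacetate as citrate and oxidises it step by step back to oxaloacetate, passing electrons to the respiratory chain. Cultured cells draw citrate and other intermediates out of the cycle for synthesis, and the refilling of the cycle is called anaplerosis. Glutamine is a main source for refilling in such cells: it is converted to glutamate and then to 2-oxoglutarate, the intermediate between isocitrate and succinyl-CoA. Pyruvate made from glucose enters either through pyruvate dehydrogenase, as acetyl-CoA, or through pyruvate carboxylase, as oxaloacetate.

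Sequence before the start site is shown for 4 members. Slc25a1 and Idh1 had the largest falls on withdrawal in both lines. Of the members that rose in WT and fell in p53-null, Pck2 and Idh3g differed most between the lines in their change on withdrawal. Other members that differed strongly between the lines, such as Dld and Pcx, are not shown. The 250 bases before each start are from RefSeq (GRCm38.p6, the assembly that mm10 names), written 5′ to 3′ on the strand of the gene, and capitals mark a match to a motif that was searched. The windows are chr16:17928220-17928469 (-) for Slc25a1, chr1:65186480-65186729 (-) for Idh1, chr14:55540016-55540265 (+) for Pck2 and chrX:73786898-73787147 (-) for Idh3g. Idh1 has another RefSeq start, with chr1:65179143-65179392 (-) before it, which is not printed. The value of a whole gene does not show which start its reads come from.
Slc25a1: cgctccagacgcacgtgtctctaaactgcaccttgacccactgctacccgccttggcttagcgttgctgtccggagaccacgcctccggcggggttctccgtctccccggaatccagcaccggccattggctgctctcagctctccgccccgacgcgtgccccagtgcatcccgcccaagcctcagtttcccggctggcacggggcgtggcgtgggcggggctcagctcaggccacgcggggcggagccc
Idh1: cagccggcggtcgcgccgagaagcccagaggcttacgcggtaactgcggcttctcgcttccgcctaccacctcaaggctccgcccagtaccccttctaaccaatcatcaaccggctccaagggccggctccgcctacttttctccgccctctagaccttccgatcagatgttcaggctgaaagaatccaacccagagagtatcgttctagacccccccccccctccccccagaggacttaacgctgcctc
Pck2: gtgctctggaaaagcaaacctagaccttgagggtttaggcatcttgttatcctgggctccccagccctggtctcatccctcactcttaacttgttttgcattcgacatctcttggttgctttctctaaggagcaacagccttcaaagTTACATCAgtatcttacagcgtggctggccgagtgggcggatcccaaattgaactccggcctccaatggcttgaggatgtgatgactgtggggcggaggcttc
Idh3g: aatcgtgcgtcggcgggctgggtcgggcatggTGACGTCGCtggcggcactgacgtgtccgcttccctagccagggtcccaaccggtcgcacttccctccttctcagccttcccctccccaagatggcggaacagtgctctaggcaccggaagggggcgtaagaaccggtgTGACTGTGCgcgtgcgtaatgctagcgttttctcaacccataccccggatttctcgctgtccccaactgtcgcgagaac

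Motifs were searched on both strands of the 300-base RefSeq windows, which run from 250 bases before to 50 bases after a start. Of the 33 members, 30 have such a window and 39 windows in all; Idh3a, Sdhc and Me2 have none. The core of the amino acid response element, TGATGNAA, which is bound by ATF4 and related factors, is in 3.97% of all 32851 windows and in those of Pck2 and Me3. In Pck2 it reads TGATGTAA on the other strand, starts at position -103 from the start site, and is printed above as TTACATCA. The core of the antioxidant response element, TGACNNNGC, is in 12.4% of all windows and in 17.9% of the members' windows, those of Dlst, Idh3g, Mdh1, Me1, Mpc1, Pdhb and Sucla2. Idh3g holds this core at positions -218 and -79. GCATGCGC, the centre of the site of nuclear respiratory factor 1 (NRF1), is in 2.71% of all windows and in those of Ogdh and Sdhb. The full NRF1 site, which contains that centre, is in 0.971% of all windows and the sterol regulatory element in 0.234%. Each was searched as a strict pattern of 10 letters, and neither is in a window of a member. Patterns this rare are likely to be missing from 39 windows in any case. Their absence therefore does not show that the members lack such elements. A match describes these letters only.

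The values are RPKM, that is, reads scaled to gene length and to the number of mapped reads of the library, so levels of different genes can be set side by side, and every value is relative to the rest of its library. Every log2 change of a gene was computed from log2(RPKM + 1), which understates the change of low genes. It comes from limma with its standard error (SE). A gene is said to rise or fall where its Benjamini-Hochberg adjusted p over all 11461 tested genes is under 0.05. Folds are ratios of group means of RPKM. Of the 33 members, 32 reached 1 RPKM in at least 3 of the 12 libraries and were tested. The exception is Me3, a mitochondrial malic enzyme, which was read at 0.315 ± 0.0182 RPKM (mean ± SD, n = 3) in WT complete, 0.161 ± 0.0228 in WT glutamine-free, 0.865 ± 0.0440 in p53-null complete and 0.315 ± 0.0460 in p53-null glutamine-free. Its 3 p53-null complete libraries were the highest of the 12. The other members spanned 1.68 RPKM (Pcx in p53-null glutamine-free) to 227 RPKM (Mdh2 in p53-null complete) as group means. No member was listed at 0 in any library.

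The sum of RPKM was 284426 to 319735 per library, and the members held 0.476 to 0.575% of it. The depth estimated from steps between low values was 37.7 to 46.9 Mreads (megareads). This estimate is rough, as it takes the smallest value of a gene as 1 read. It rests only on 548 genes whose low values were all whole steps. It also uses exon lengths of GENCODE M21, which may not be the annotation behind the deposited values. The correlation between libraries of a group was 0.9981 to 0.9989 over 12 pairs. Trp53, which encodes p53, was read at 58.5 ± 0.585 RPKM (n = 3) in WT complete and 28.8 ± 0.873 in p53-null complete; a gene total does not show which exons the reads come from, so it does not test the label. Of the 12 fibroblast markers listed, 9 were tested; Thy1, Fap and Lum were at or near 0 in every library, so these usual markers of fibroblasts do not mark either line. The summed fibroblast markers were 3667 to 3689 RPKM in WT complete, 778 to 785 in WT glutamine-free, 2227 to 2253 in p53-null complete and 1132 to 1159 in p53-null glutamine-free. They thus moved with the medium in both lines beside the members' falls, and their part in the members' changes was not tested. Epithelial markers summed to at most 0.144 RPKM in WT and to 60.0 to 77.0 in p53-null, nearly all of it Krt18, while Epcam was at or near 0. The sums were at most 7.74 RPKM for blood markers (Ptprc and Cd52 at or near 0), 1.58 for endothelial markers (Cdh5 and Emcn at or near 0) and 23.9 for adipocyte markers, all but a trace of it Fabp4 in WT complete. Muscle and neural markers summed to 36.6 to 37.2 RPKM in WT complete and 19.0 to 19.3 in WT glutamine-free, from Tubb3 and Stmn2, and to at most 3.15 in p53-null. In RNA from whole cultures, fewer cells of a type and less RNA per cell cannot be told apart.

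Withdrawal of glutamine moved the members in both directions in WT, with more falls than rises, and mostly downward in p53-null. In WT, 12 of the 32 tested members rose (37.5%, against 46.0% of all tested genes) and 18 fell (56.2%, against 44.0%). With quantile normalization, 11 rose and 21 fell in WT. In p53-null, 7 rose (21.9%, against 50.0% of all tested genes) and 23 fell (71.9%, against 32.0%). The p53-null split depended on the scaling of the libraries: 2 rose and 27 fell with median centring, 3 rose and 26 fell with quantile normalization, and 8 rose and 20 fell with libraries rescaled to one sum. With an added size limit of 0.5 on the log2 scale, 2 members rose (Dld and Idh3a) and 9 fell in WT, against 25.0% and 25.8% of all tested genes (1 and 11 with quantile normalization). In p53-null none rose by that much and 9 fell, against 12.9% and 9.21% of all tested genes. The members' median change was -0.14 in WT against 0.01 over all tested genes, and -0.18 in p53-null against 0.08. It was -0.24 in WT and -0.32 in p53-null with quantile normalization (all tested genes 0.05 and 0.03), and -0.29 in p53-null with median centring (all tested genes -0.02).

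**Figure D1:**
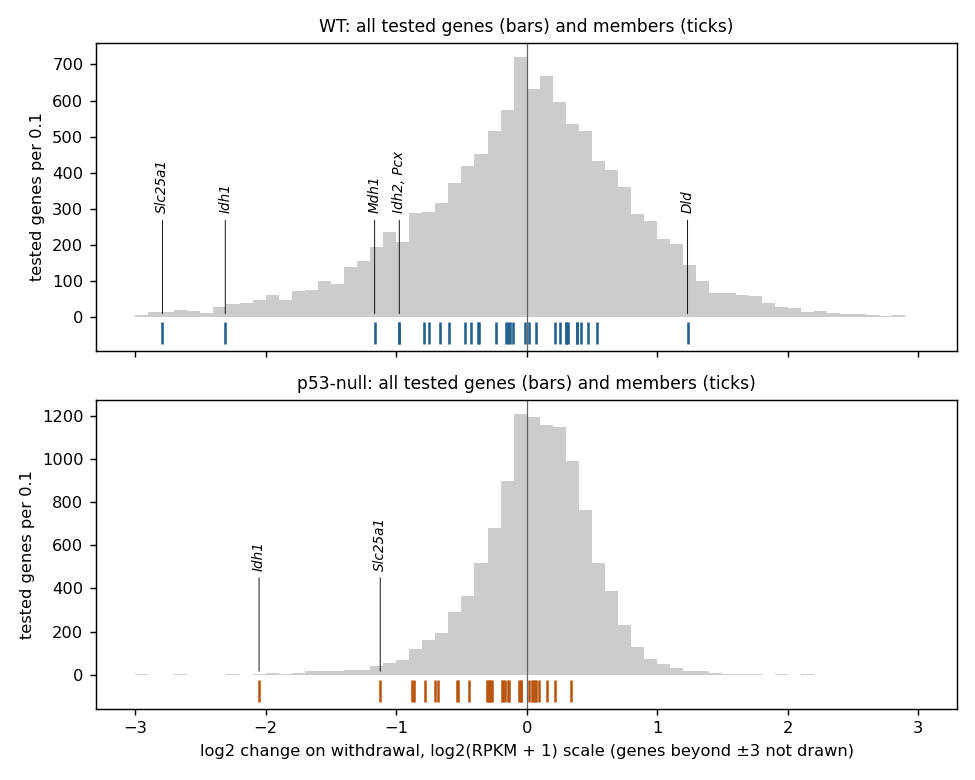
Histograms of the log2 change on glutamine withdrawal (x axis, log2(RPKM + 1) scale) of all 11461 tested genes, with the number of genes per 0.1 on the y axis, for WT above and p53-null below; ticks under the bars are the 32 tested members. Slc25a1 at -2.79 and Idh1 at -2.31 lie in the lower tail in WT, and Idh1 at -2.05 and Slc25a1 at -1.12 are the lowest members in p53-null.

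**Figure D2:**
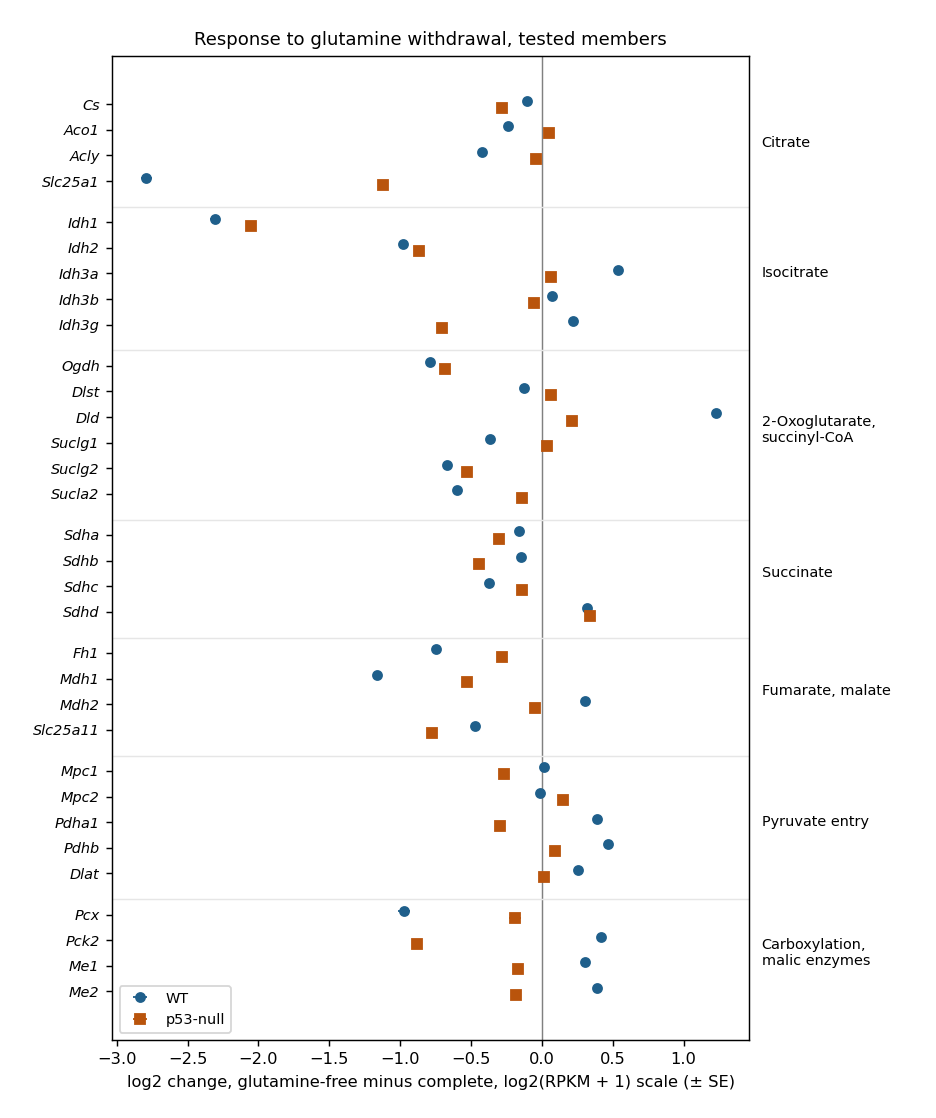
Log2 change on glutamine withdrawal (x axis, log2(RPKM + 1) scale, bars are SE) of each tested member, ordered by step, for WT (circles) and p53-null (squares). Members of 1 step part from each other: Dld lies at 1.23 and Ogdh at -0.79 in WT.

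Citrate is made by citrate synthase (Cs), turned to isocitrate by aconitase, carried out of the mitochondrion by Slc25a1 and split in the cytosol by ATP citrate lyase (Acly) into acetyl-CoA and oxaloacetate. The carrier had the largest change of any member. Slc25a1 (chr16:17925223-17928219, minus strand) was read at 59.2, 57.0 and 56.9 RPKM in WT complete, 7.14, 7.48 and 7.84 in WT glutamine-free, 16.6, 17.9 and 17.0 in p53-null complete and 7.49, 7.56 and 6.98 in p53-null glutamine-free. The complete libraries of each line were all above its glutamine-free libraries, and the glutamine-free libraries of the 2 lines overlapped. It fell 7.71-fold in WT (log2 change -2.79, SE 0.037, adjusted p = 4.9e-16) and 2.34-fold in p53-null (log2 change -1.12, SE 0.037, adjusted p = 1.6e-11), and the fall was larger in WT by 1.67 on the log2 scale (log2 change -1.67, SE 0.052, adjusted p = 6.7e-12 for the difference of the responses). Acly, which uses the exported citrate, was read at 84.1, 84.8 and 85.5 RPKM in WT complete, 61.8, 63.6 and 63.6 in WT glutamine-free, 68.5, 68.5 and 68.5 in p53-null complete and 66.1, 66.9 and 66.2 in p53-null glutamine-free. Its WT libraries parted by medium, while all p53-null libraries lay between 66.1 and 68.5 RPKM. Acly fell 1.35-fold in WT (log2 change -0.42, SE 0.014, adjusted p = 3.8e-12), and in p53-null the change was -0.04 (adjusted p = 0.012, and 0.19 with libraries rescaled to one sum). Cs fell in both lines, from 78.8 ± 0.427 to 73.1 ± 0.819 RPKM in WT and from 122 ± 0.282 to 99.8 ± 2.75 in p53-null (log2 changes -0.11 and -0.28). Aco1, the cytosolic aconitase that also serves as an iron sensor, fell in WT from 26.9 ± 0.285 to 22.7 ± 0.310 RPKM; its p53-null change of 0.05 turned to -0.06 with median centring and was not called without p53-null complete replicate 1 or 3 or p53-null glutamine-free replicate 1.

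Isocitrate is oxidised to 2-oxoglutarate by 3 kinds of enzyme: the NAD-dependent complex of the cycle, built of Idh3a, Idh3b and Idh3g, and the NADP-dependent Idh2 in mitochondria and Idh1 in the cytosol. The NADP-dependent pair can also run in reverse and make isocitrate from 2-oxoglutarate. RNA of both NADP-dependent enzymes fell in both lines, while the 3 subunits of the NAD-dependent complex did not move together. Idh1 (chr1:65158616-65186500, minus strand) was read at 33.9, 33.8 and 33.3 RPKM in WT complete, 6.21, 5.73 and 6.06 in WT glutamine-free, 16.0, 15.8 and 15.6 in p53-null complete and 3.16, 2.91 and 3.11 in p53-null glutamine-free. The 4 groups did not overlap, and WT complete was the highest. Idh1 fell 5.61-fold in WT (log2 change -2.31, SE 0.030, adjusted p = 4.2e-16) and 5.17-fold in p53-null (log2 change -2.05, SE 0.030, adjusted p = 1.8e-14). Idh2 was read at 77.9, 79.1 and 78.1 RPKM in WT complete, 38.5, 40.0 and 39.3 in WT glutamine-free, 85.0, 86.9 and 88.1 in p53-null complete and 47.3, 46.3 and 47.6 in p53-null glutamine-free. Every glutamine-free library was below every complete library of either line. Idh2 fell 2.00-fold in WT (log2 change -0.98, SE 0.018, adjusted p = 1.2e-14) and 1.84-fold in p53-null (log2 change -0.87, SE 0.018, adjusted p = 3.6e-13).

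Of the NAD-dependent complex, Idh3g, a regulatory subunit, differed most between the lines in its response to withdrawal. It was read at 58.4, 55.4 and 57.2 RPKM in WT complete, 65.0, 67.3 and 67.0 in WT glutamine-free, 61.7, 60.8 and 61.6 in p53-null complete and 37.1, 37.9 and 37.0 in p53-null glutamine-free. The WT glutamine-free libraries were the highest of the 12 and the p53-null glutamine-free libraries the lowest. Idh3g (chrX:73778963-73786897, minus strand) rose in WT (log2 change 0.22, SE 0.020, adjusted p = 2.5e-07) and fell 1.64-fold in p53-null (log2 change -0.70, SE 0.020, adjusted p = 5.2e-12), a difference of 0.92 between the responses (SE 0.029, adjusted p = 6.4e-12). Idh3a, the catalytic subunit, rose in WT from 29.8 ± 0.666 to 43.7 ± 1.91 RPKM (log2 change 0.54, SE 0.027, adjusted p = 3.3e-10). In p53-null Idh3a was 42.5 ± 0.556 RPKM in complete and 44.4 ± 0.559 in glutamine-free medium; this change of 0.06 (adjusted p = 0.046) was -0.04 with median centring, and missed the threshold when any library of the p53-null line, or WT complete replicate 3, was left out, with adjusted p from 0.0514 to 0.135. Idh3b, the other regulatory subunit, changed by 0.07 in WT and -0.06 in p53-null, and its WT direction turned with quantile normalization (-0.05). At group means of 51.1 to 86.0 RPKM, Idh3b was read above Idh3a in all 4 groups.

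2-Oxoglutarate, the point where carbon of glutamine enters, is oxidised to succinyl-CoA by a complex of Ogdh (its first enzyme), Dlst (the transferase) and Dld (the dehydrogenase that reloads the complex, shared with pyruvate dehydrogenase). The first and the last of these went opposite ways in WT. Ogdh was read at 19.0, 18.8 and 18.7 RPKM in WT complete, 10.6, 10.4 and 10.5 in WT glutamine-free, 24.1, 24.5 and 23.7 in p53-null complete and 14.5, 14.6 and 14.7 in p53-null glutamine-free. Every glutamine-free library was below every complete library, and WT was below p53-null in each medium. Ogdh fell 1.797-fold in WT (log2 change -0.79, SE 0.018, adjusted p = 7e-14) and 1.65-fold in p53-null (log2 change -0.68, SE 0.018, adjusted p = 1.9e-12). Dld was read at 37.8, 39.0 and 36.3 RPKM in WT complete, 92.3, 89.4 and 88.1 in WT glutamine-free, 48.6, 48.0 and 47.8 in p53-null complete and 55.5, 56.2 and 56.2 in p53-null glutamine-free. The WT glutamine-free libraries stood above the other 9. Dld rose 2.38-fold in WT (log2 change 1.23, SE 0.024, adjusted p = 1.9e-14), the largest rise of any member, and 1.16-fold in p53-null (log2 change 0.21, SE 0.024, adjusted p = 2.4e-06). The rise was larger in WT by 1.02 on the log2 scale (SE 0.034, adjusted p = 1.2e-11). Dlst changed little, by -0.13 in WT and 0.07 in p53-null, the latter turning to -0.04 with median centring and -0.05 with quantile normalization.

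Succinyl-CoA is turned to succinate by a ligase of the shared subunit Suclg1 and either Suclg2 (which makes GTP) or Sucla2 (which makes ATP), and all 3 fell in WT. Suclg2 was read at 28.9, 28.4 and 28.9 RPKM in WT complete, 18.0, 17.5 and 17.6 in WT glutamine-free, 20.4, 21.0 and 19.6 in p53-null complete and 13.5, 13.8 and 13.99 in p53-null glutamine-free. Its glutamine-free libraries were below all complete libraries. Suclg2 fell in WT (log2 change -0.67, SE 0.024, adjusted p = 9.7e-12) and in p53-null (log2 change -0.53, SE 0.024, adjusted p = 3e-10). Sucla2 was read at 39.3, 40.3 and 40.2 RPKM in WT complete, 26.1, 25.7 and 26.3 in WT glutamine-free, 31.8, 31.9 and 30.3 in p53-null complete and 27.3, 28.3 and 29.3 in p53-null glutamine-free. The media did not overlap within either line, but in p53-null the nearest libraries stood at 29.3 and 30.3 RPKM. Sucla2 fell 1.53-fold in WT (log2 change -0.60, SE 0.026, adjusted p = 6.2e-11) and 1.11-fold in p53-null (log2 change -0.14, SE 0.026, adjusted p = 0.0002). Suclg1 fell in WT from 46.2 ± 1.18 to 35.6 ± 0.596 RPKM (log2 change -0.37, SE 0.022, adjusted p = 2.4e-09) and was 49.1 ± 0.538 and 50.5 ± 1.19 RPKM in the p53-null media, a change of 0.04 (adjusted p = 0.11) that was -0.07 with median centring and 0.06 with rescaling to one sum, both called.

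Succinate dehydrogenase, which is also complex II of the respiratory chain, has 4 subunits, and their RNA moved by less than 0.5 on the log2 scale in either line. Sdha and Sdhb, the catalytic flavoprotein and the iron-sulfur protein, fell in both lines. Sdha was 98.3 ± 0.906 and 87.9 ± 1.35 RPKM in the WT media and 67.3 ± 0.761 and 54.5 ± 0.616 in the p53-null media (log2 changes -0.16 and -0.30). Sdhb fell by less in WT, from 78.8 ± 1.92 to 71.2 ± 1.43 RPKM, than in p53-null, from 70.3 ± 1.804 to 51.4 ± 0.351 (difference of the responses 0.30, SE 0.031, adjusted p = 1.1e-06). Of the 2 membrane anchors, Sdhc fell by 0.38 in WT and 0.14 in p53-null on the log2 scale, while Sdhd rose. Sdhd went from 60.3 ± 1.15 to 75.6 ± 2.16 RPKM in WT (log2 change 0.32, SE 0.027, adjusted p = 8.3e-08) and from 44.4 ± 0.130 to 56.4 ± 2.20 in p53-null (log2 change 0.34, SE 0.027, adjusted p = 8e-08). Among the tested members Sdhd alone had no called difference between the lines' responses (-0.02, SE 0.038, adjusted p = 0.67), and with median centring even that difference was called, at 0.08.

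Fumarase (Fh1) makes malate, and malate is oxidised to oxaloacetate by Mdh2 in mitochondria and Mdh1 in the cytosol. The cytosolic enzyme fell in both lines, while Mdh2 rose in WT. Mdh1 was read at 75.4, 73.7 and 74.5 RPKM in WT complete, 32.6, 32.4 and 33.2 in WT glutamine-free, 72.9, 71.9 and 70.9 in p53-null complete and 49.4, 49.2 and 49.9 in p53-null glutamine-free. The WT glutamine-free libraries were the lowest, p53-null glutamine-free lay between, and the complete libraries of both lines lay between 70.9 and 75.4 RPKM. Mdh1 fell 2.28-fold in WT (log2 change -1.16, SE 0.015, adjusted p = 4.6e-16) and 1.45-fold in p53-null (log2 change -0.53, SE 0.015, adjusted p = 5.3e-12), and the difference of the responses was -0.63 (SE 0.022, adjusted p = 1.5e-11). Mdh2, the highest member, was read at 139, 135 and 135 RPKM in WT complete, 168, 167 and 170.0 in WT glutamine-free, 229, 227 and 226 in p53-null complete and 216, 221 and 223 in p53-null glutamine-free. All WT libraries were below all p53-null libraries, and within WT the media did not overlap. Mdh2 rose 1.23-fold in WT (log2 change 0.30, SE 0.015, adjusted p = 2.5e-10); its p53-null change was -0.05 (adjusted p = 0.012), 0.06 with quantile normalization, and not called with rescaling to one sum (adjusted p = 0.139) or without p53-null glutamine-free replicate 1 (adjusted p = 0.0555).

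Fh1 was read at 43.5, 43.7 and 43.0 RPKM in WT complete, 24.7, 26.1 and 25.6 in WT glutamine-free, 47.4, 49.8 and 47.6 in p53-null complete and 39.3, 39.9 and 39.2 in p53-null glutamine-free. The media did not overlap in either line. Fh1 fell 1.71-fold in WT (log2 change -0.75, SE 0.022, adjusted p = 1.4e-12) and 1.22-fold in p53-null (log2 change -0.28, SE 0.022, adjusted p = 8e-08). Slc25a11, the carrier that exchanges 2-oxoglutarate for malate across the inner membrane as part of the malate-aspartate shuttle, was read at 29.4, 29.6 and 28.4 RPKM in WT complete, 21.1, 19.99 and 21.2 in WT glutamine-free, 33.7, 32.5 and 32.9 in p53-null complete and 18.8, 18.5 and 19.3 in p53-null glutamine-free. Its glutamine-free libraries were below all complete libraries. Slc25a11 fell in WT (log2 change -0.47, SE 0.026, adjusted p = 8.3e-10) and by more in p53-null (log2 change -0.78, SE 0.026, adjusted p = 1.7e-11; difference of the responses 0.31, SE 0.036, adjusted p = 3.9e-06). For 8 members, part of the exons is shared with an opposite-strand gene, and the kit named in the labels keeps no strand information, so reads of the overlap cannot be told apart. For Slc25a11 this is Rnf167, over 8.9% of its exons.

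Pyruvate enters mitochondria through the carrier of Mpc1 and Mpc2 and is oxidised by pyruvate dehydrogenase, whose first enzyme is built of Pdha1 and Pdhb and whose transferase is Dlat. In WT the pyruvate dehydrogenase genes rose, and the carrier genes were not called except with quantile normalization, where both fell. Pdha1 was read at 88.0, 86.5 and 87.3 RPKM in WT complete, 117, 113 and 113 in WT glutamine-free, 91.5, 89.9 and 89.4 in p53-null complete and 72.7, 73.2 and 74.4 in p53-null glutamine-free. As for Idh3g, the WT glutamine-free libraries were the highest of the 12 and the p53-null glutamine-free libraries the lowest. Pdha1 rose 1.31-fold in WT (log2 change 0.39, SE 0.017, adjusted p = 8.1e-11) and fell 1.23-fold in p53-null (log2 change -0.29, SE 0.017, adjusted p = 3.5e-09), a difference of 0.68 between the responses (SE 0.024, adjusted p = 2.2e-11). Map3k15, on the other strand, lies over 16.1% of the exon sequence of Pdha1. Pdhb rose in WT from 50.3 ± 0.692 to 69.9 ± 1.03 RPKM (log2 change 0.47, SE 0.018, adjusted p = 2.8e-11) and Dlat from 17.2 ± 0.557 to 20.7 ± 0.480 (log2 change 0.25, SE 0.024, adjusted p = 3.2e-07). In p53-null, Pdhb changed by 0.09 and Dlat by 0.02 (adjusted p = 0.0005 and 0.54), and both turned downward with median centring, to -0.01 and -0.09. Mpc1 was 46.6 ± 1.65 and 47.1 ± 1.36 RPKM in the WT media (change 0.02, adjusted p = 0.65). It turned to -0.12 with quantile normalization, the only setting that called it (adjusted p = 0.0027). Mpc1 fell in p53-null from 24.0 ± 0.980 to 19.9 ± 0.337 RPKM (log2 change -0.26, SE 0.032, adjusted p = 5.4e-06). Mpc2 was 19.4 ± 0.244 and 19.2 ± 0.475 RPKM in the WT media (change -0.01, adjusted p = 0.65, called only with quantile normalization, at -0.08) and rose in p53-null from 26.9 ± 0.750 to 30.0 ± 0.610 RPKM (log2 change 0.15, SE 0.024, adjusted p = 6.9e-05), a call that median centring ended (adjusted p = 0.0947). 4930506C21Rik lies on the other strand over 23.1% of the exon sequence of Mpc1, which also has 1 named pseudogene.

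The last group adds carbon to the cycle or drains it. Pcx (pyruvate carboxylase) makes oxaloacetate from pyruvate, Pck2 (mitochondrial phosphoenolpyruvate carboxykinase) takes oxaloacetate to phosphoenolpyruvate, and the malic enzymes Me1 (cytosolic), Me2 and Me3 (mitochondrial) take malate to pyruvate. Pcx fell in both lines, and Pck2, Me1 and Me2 rose in WT and fell in p53-null. Pcx was read at 17.2, 17.3 and 17.3 RPKM in WT complete, 7.90, 8.59 and 8.40 in WT glutamine-free, 1.89, 2.24 and 2.04 in p53-null complete and 1.67, 1.60 and 1.78 in p53-null glutamine-free. All 6 p53-null libraries were at 2.24 RPKM or lower, and the lowest WT library was at 7.90. Pcx fell 2.08-fold in WT (log2 change -0.98, SE 0.042, adjusted p = 6.9e-11) and 1.22-fold in p53-null (log2 change -0.19, SE 0.042, adjusted p = 0.0012). Pck2 (chr14:55540266-55551242, plus strand) was read at 43.7, 43.8 and 44.2 RPKM in WT complete, 57.4, 59.6 and 59.8 in WT glutamine-free, 56.1, 54.6 and 56.8 in p53-null complete and 29.5, 30.1 and 30.0 in p53-null glutamine-free. The p53-null glutamine-free libraries were the lowest of the 12 and the WT glutamine-free libraries the highest. Pck2 rose 1.34-fold in WT (log2 change 0.42, SE 0.019, adjusted p = 1.3e-10) and fell 1.87-fold in p53-null (log2 change -0.88, SE 0.019, adjusted p = 5e-13), and the difference of the responses, 1.30 (SE 0.027, adjusted p = 1.8e-13), was the largest positive one of any member. Me2 went from 17.5 ± 0.342 to 23.2 ± 0.668 RPKM in WT and from 23.6 ± 0.153 to 20.6 ± 0.361 in p53-null (difference of the responses 0.57, SE 0.032, adjusted p = 1.9e-09). Me1 went from 25.0 ± 0.508 to 31.1 ± 0.311 RPKM in WT and from 27.7 ± 0.352 to 24.6 ± 0.205 in p53-null (difference of the responses 0.47, SE 0.025, adjusted p = 1.4e-09).

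**Figure D3:**
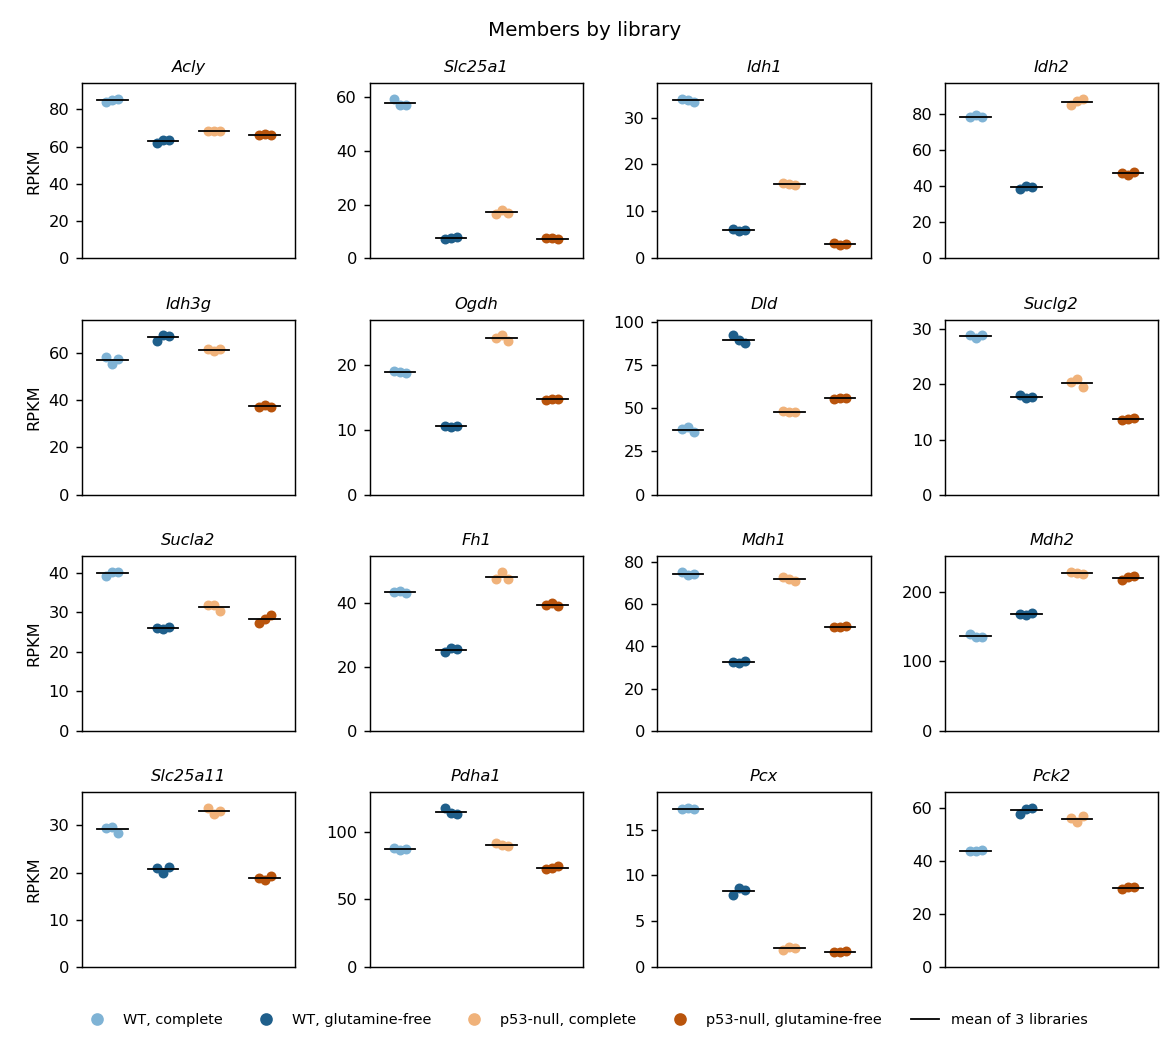
RPKM (y axis, from 0) of 16 members in each of the 12 libraries, in 4 groups along the x axis; each point is 1 library and each line the mean of 3. Slc25a1 and Idh1 were lower in glutamine-free medium in both lines, whereas Pck2, Idh3g and Pdha1 were highest in WT glutamine-free and lowest in p53-null glutamine-free.

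The response to withdrawal itself was compared between the lines, as the change in WT minus the change in p53-null. It was higher in WT for 16 of the 32 members (against 38.4% of all tested genes) and lower for 15 (against 46.4%). At a size of 0.5 or more, 5 members were higher in WT (Pck2, Dld, Idh3g, Pdha1 and Me2; background 17.7%) and 3 were lower (Slc25a1, Pcx and Mdh1; background 25.1%). The members' median difference was 0.06 against -0.06 over all tested genes, but 0.16 against 0.04 with median centring, 0.05 against 0.04 with quantile normalization and 0.01 against -0.10 with rescaling to one sum, so the contrast in sign depended on the scaling. The 2 responses share no library, but each rests on the complete group of its own line, and the lines already differed there: Pck2 stood at 43.9 RPKM in WT complete and 55.8 in p53-null complete. The calls for Idh2, Ogdh, Suclg2 and Mpc2, all with a size of 0.16 or less, were lost with median centring, that for Idh3b (0.13) was lost with quantile normalization, and the difference for Ogdh turned to 0.08 with quantile normalization.

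Between the lines, in complete medium, 17 of the 32 members were higher in p53-null (background 48.4%) and 14 lower (background 42.5%). With the size limit of 0.5, 3 were higher (Idh3b, Mdh2 and Cs; background 25.5%) and 6 lower (Pcx, Slc25a1, Idh1, Mpc1, Aco1 and Sdha; background 23.5%), a split that became 6 higher and 5 lower with libraries rescaled to one sum, 4 and 5 with quantile normalization, and 3 and 7 with median centring. Pcx was the furthest apart, 8.40-fold lower in p53-null (log2 change -2.58, SE 0.042, adjusted p = 3.9e-15). Slc25a1 was 3.36-fold lower (log2 change -1.69, SE 0.037, adjusted p = 6.3e-14), Idh1 2.13-fold lower (-1.05, SE 0.030, adjusted p = 1e-12) and Mpc1 1.94-fold lower (-0.93, SE 0.032, adjusted p = 6.7e-12). Aco1 differed by -0.71. In the other direction, Idh3b was 1.68-fold higher in p53-null (log2 change 0.74, SE 0.017, adjusted p = 9.8e-14), Mdh2 1.67-fold higher (log2 change 0.73, SE 0.015, adjusted p = 2.9e-14) and Cs 1.54-fold higher (log2 change 0.62, SE 0.018, adjusted p = 9.4e-13), followed by Idh3a at 0.50 and Mpc2 at 0.45. The members' median difference was 0.07 against 0.05 over all tested genes, 0.17 against 0.14 with rescaling to one sum, 0.11 against 0.06 with quantile normalization and 0.03 against 0.02 with median centring.

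In glutamine-free medium, 13 members were higher in p53-null (background 51.4%) and 17 lower (background 40.0%). This split moved with the scaling: 15 higher and 14 lower with libraries rescaled to one sum, and 10 higher and 20 lower with median centring. These scalings moved the median of all tested genes from 0.105 to 0.233 and to -0.031; median centring also moved it from 0.083 to -0.022 for withdrawal in p53-null. With the size limit, 4 were higher (Fh1, Mpc2, Idh3b and Mdh1; background 28.0%) and 8 lower (Pcx, Mpc1, Pck2, Idh3g, Idh1, Sdha, Dld and Pdha1; background 19.9%); these became 0 and 12 with median centring, 8 and 7 with rescaling to one sum, and 7 and 7 with quantile normalization. Pcx remained 4.93-fold lower in p53-null (log2 change -1.79, SE 0.042, adjusted p = 1.5e-13) and Mpc1 2.37-fold lower (log2 change -1.21, SE 0.032, adjusted p = 4.9e-13). Pck2, which was higher in p53-null in complete medium (0.34), was 1.97-fold lower there without glutamine (log2 change -0.96, SE 0.019, adjusted p = 3.3e-14), and Idh3g likewise went from 0.10 to -0.81. Dld and Pdha1 also changed sides, from 0.34 to -0.67 and from 0.05 to -0.63, though the complete-medium difference of Pdha1 was not called with median centring (adjusted p = 0.508), without WT complete replicate 2 or without p53-null complete replicate 1. The members furthest above WT were Fh1 (0.61), Mpc2 (0.61), Idh3b (0.61), Mdh1 (0.58) and Suclg1 (0.49). Slc25a1, so far apart in complete medium, did not pass here (-0.02, adjusted p = 0.53), while rescaling to one sum gave 0.11, median centring -0.16 and quantile normalization -0.18, all called. The members' median difference was -0.14 against 0.10 over all tested genes, -0.27 against -0.03 with median centring, and 0.006 against 0.23 with rescaling to one sum, where its sign turned.

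**Figure D4:**
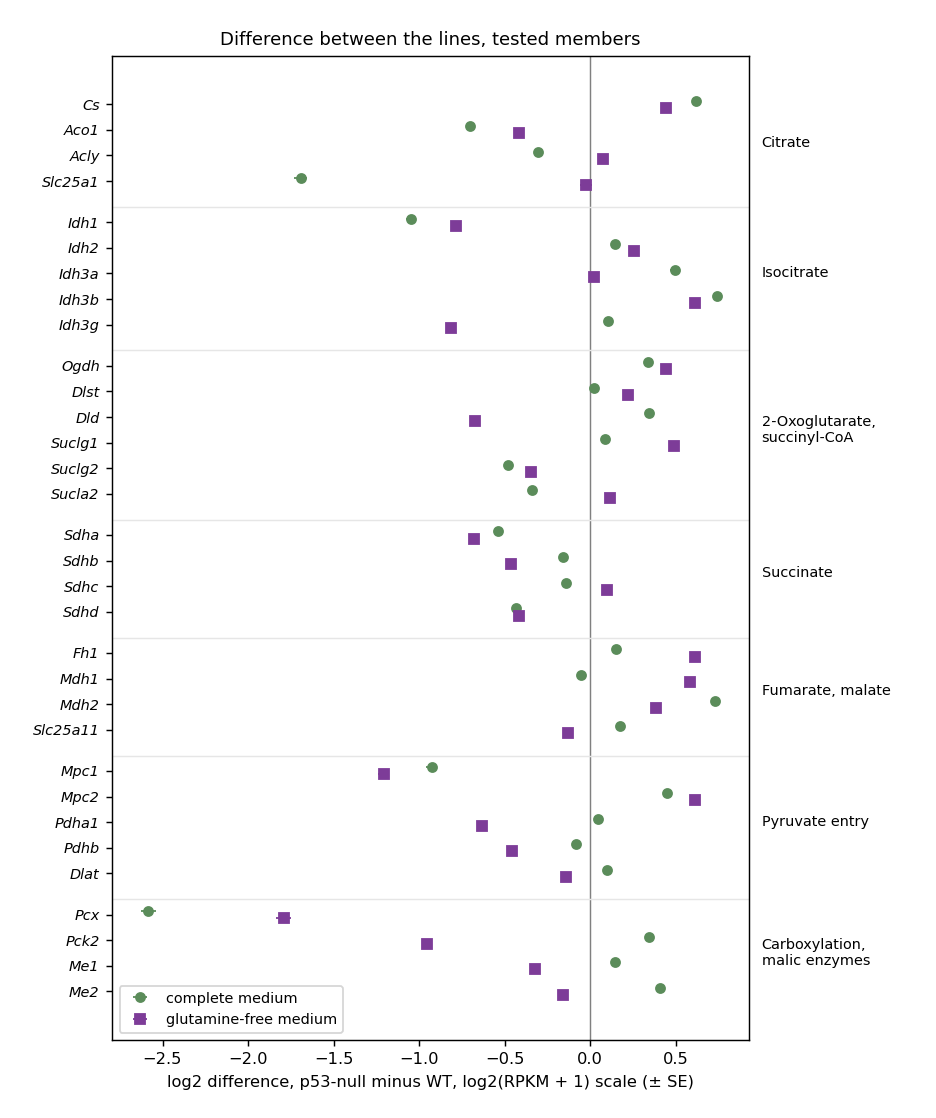
Log2 difference between the lines, p53-null minus WT (x axis, log2(RPKM + 1) scale, bars are SE), of each tested member by step, in complete (circles) and glutamine-free medium (squares). Pcx and Mpc1 lie to the left in both media, while Slc25a1 goes from -1.69 to -0.02 and Pck2 from 0.34 to -0.96.

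Because RPKM is per length, genes with related roles were also set against each other within each library, as 9 ratios in 4 comparisons. The ratios use RPKM without the added 1, so their log2 shifts are on another scale than the limma changes. With 3 libraries against 3, an exact two-sided permutation test cannot give a p under 0.1, and 33 of the 36 comparisons had that value (adjusted p = 0.109 over the 36), so the ratios are described by their mean ± SD over the 3 libraries of a group. The ratio of cytosolic to mitochondrial NADP-dependent isocitrate dehydrogenase, Idh1/Idh2, was 0.430 ± 0.005 in WT complete and 0.153 ± 0.00916 in WT glutamine-free, and 0.182 ± 0.00551 and 0.0649 ± 0.00203 in the p53-null media. It thus shifted by -1.49 on the log2 scale in both lines, from different starting levels, with no overlap between media. The ratio Mdh1/Mdh2 went from 0.547 ± 0.00465 to 0.194 ± 0.000738 in WT and from 0.317 ± 0.00267 to 0.225 ± 0.00282 in p53-null. WT was above p53-null in complete medium and below it in glutamine-free medium. Slc25a1/Acly, the citrate carrier over the lyase, went from 0.680 ± 0.0205 to 0.119 ± 0.004 in WT and from 0.251 ± 0.00947 to 0.111 ± 0.00448 in p53-null.

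Pck2/Pcx, the carboxykinase over the carboxylase, was 2.54 ± 0.019 in WT complete and 7.11 ± 0.164 in WT glutamine-free, but 27.3 ± 2.69 and 17.8 ± 0.976 in the p53-null media. The ratio was higher without glutamine in WT and lower without it in p53-null, and every p53-null library was above every WT library. Mpc1/Mpc2 was 2.40 ± 0.0854 and 2.45 ± 0.12 in the WT media, which overlapped (exact permutation p = 0.6), and 0.896 ± 0.0558 and 0.663 ± 0.00638 in the p53-null media. In WT, Mpc1 was thus read above its partner in all 6 libraries, and in p53-null below it in all 6. Suclg2/Sucla2 went from 0.719 ± 0.0154 to 0.681 ± 0.00944 in WT and from 0.648 ± 0.00752 to 0.486 ± 0.00851 in p53-null. Me1/Me2 overlapped between media in both lines, at 1.43 ± 0.0558 and 1.34 ± 0.051 in WT (exact permutation p = 0.3) and 1.18 ± 0.00783 and 1.19 ± 0.03 in p53-null (exact permutation p = 0.5). Idh3a/Idh3b went from 0.584 ± 0.0103 to 0.816 ± 0.0497 in WT and from 0.494 ± 0.00531 to 0.538 ± 0.0144 in p53-null. Me3 was at most 0.0367 ± 0.00181 of Me2 in any group mean.

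**Figure D5:**
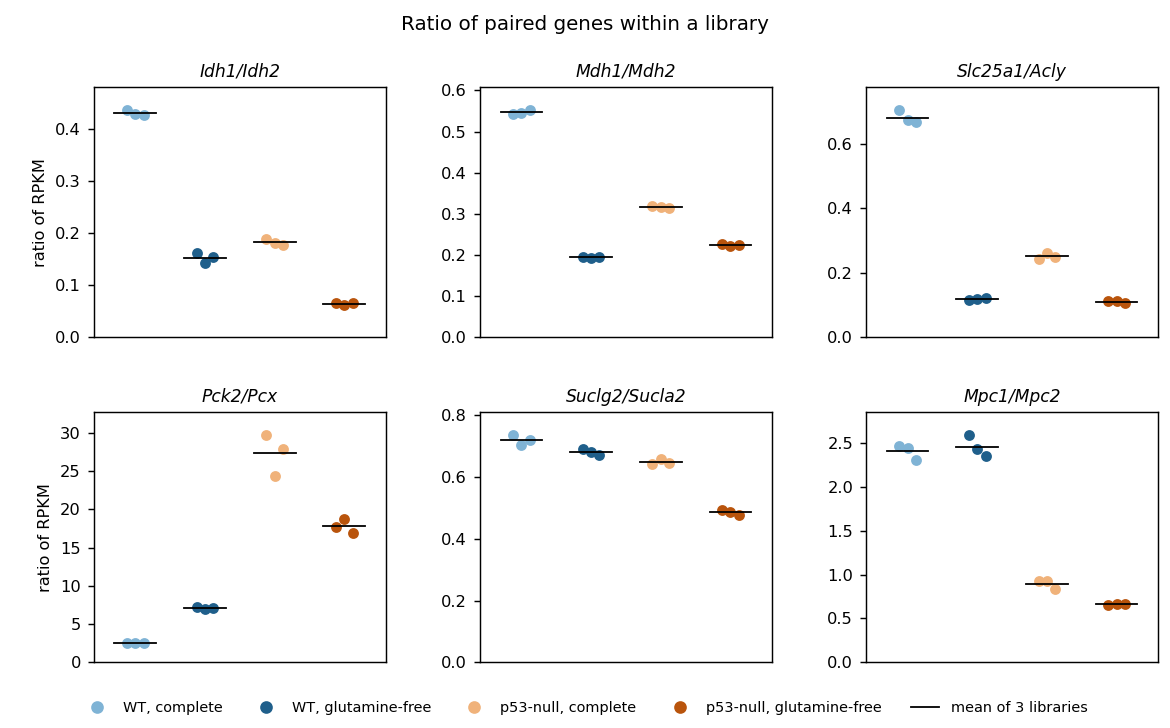
Ratio of RPKM of 6 gene pairs within a library (y axis, from 0) in 4 groups of 3 libraries along the x axis; each point is 1 library and each line the mean of 3. Idh1/Idh2 and Slc25a1/Acly were lower without glutamine in both lines, whereas mean Pck2/Pcx went from 2.54 to 7.11 in WT and from 27.3 to 17.8 in p53-null.

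Other genes of the pathway were read from 5 lists. Of 7 genes through which glutamine and glutamate carbon reaches 2-oxoglutarate, all tested, 5 rose and 0 fell in WT (6 and 1 with quantile normalization; all tested genes 46.0% and 44.0%), and 3 rose and 2 fell in p53-null, near the 50.0% and 32.0% of all tested genes (3 and 4 with median centring). Gpt2, the mitochondrial alanine aminotransferase, went from 21.1 ± 0.159 to 108 ± 2.08 RPKM in WT and from 27.4 ± 0.371 to 41.8 ± 0.509 in p53-null (log2 changes 2.31 and 0.59). Got1, the cytosolic aspartate aminotransferase, changed by 1.74 and 0.66. Glud1, glutamate dehydrogenase, fell in p53-null from 76.2 ± 0.684 to 52.2 ± 0.782 RPKM (log2 change -0.54). All 7 had a higher response in WT than in p53-null (6 with quantile normalization and with rescaling to one sum), against 38.4% of all tested genes, with a median difference of 0.56 against -0.06 over all tested genes.

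Among the kinases and phosphatases that switch pyruvate dehydrogenase off and on, 6 of 7 were tested, and 1 rose and 5 fell in WT (all tested genes 46.0% and 44.0%), and 2 rose and 2 fell in p53-null (all tested genes 50.0% and 32.0%; 1 and 4 with median centring). Pdp1, a phosphatase that activates the enzyme, fell from 13.5 ± 0.211 to 5.07 ± 0.195 RPKM in WT and rose from 2.66 ± 0.248 to 3.89 ± 0.118 in p53-null. Pdk2 and Pdk3, kinases that inhibit it, fell in WT by 1.01 and 0.74 on the log2 scale. In complete medium all 6 were lower in p53-null than in WT, against 42.5% of all tested genes, with Pdk1 at 5.52 ± 0.121 against 22.4 ± 0.178 RPKM. Of other cycle enzymes, assembly factors and cofactor genes, 12 of 14 listed were tested. In WT 6 rose and 3 fell (50% and 25%, against 46.0% and 44.0% of all tested genes). In p53-null 6 rose and 5 fell (50% and 41.7%, against 50.0% and 32.0%). The rises were thus near the shares of all tested genes, and the WT falls were below theirs. Sdhaf4, an assembly factor of succinate dehydrogenase, fell from 16.3 ± 0.359 to 7.32 ± 0.385 RPKM in WT (log2 change -1.05), while Lipt2 and Lias, which make the lipoyl group that Dlst and Dlat carry, rose by 0.83 and 0.68. Lipt2 was low, at 0.843 ± 0.0867 RPKM in WT complete and 2.29 ± 0.250 in WT glutamine-free. Its rise was 2.71-fold and that of Lias 1.67-fold, as the added 1 understates the change of a low gene. Ogdhl, an Ogdh-like enzyme, fell in p53-null by 0.88.

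Of genes for propionyl-CoA and acetate entry, 5 were tested, of which 2 rose and 3 fell in WT (all tested genes 46.0% and 44.0%; 1 rose with rescaling to one sum and with median centring). In p53-null 4 fell, against 32.0% of all tested genes (5 with median centring and with quantile normalization). Acss2, which makes acetyl-CoA from acetate in the cytosol, fell in WT from 5.43 ± 0.0732 to 0.494 ± 0.0464 RPKM (log2 change -2.11), and Pccb, a subunit of propionyl-CoA carboxylase, fell in both lines (log2 changes -0.82 and -1.14). Of 16 genes listed for mitochondrial content, import and proteostasis, 11 rose and 3 fell in WT, against 46.0% and 44.0% of all tested genes. In p53-null 5 rose and 7 fell, against 50.0% and 32.0% (4 and 11 with median centring). Lonp1, a protease of the mitochondrial matrix, rose in WT from 49.9 ± 0.270 to 155 ± 0.994 RPKM (log2 change 1.62), and Timm23, a channel of protein import, rose in both lines (log2 changes 1.19 and 0.57). The median change of the 16 was 0.49 in WT and -0.05 in p53-null, against 0.01 and 0.08 over all tested genes.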

How the data were processed

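RNA of 12 libraries (2 lines, 2 media, 3 libraries a group) had been sequenced, and the deposited table holds RPKM values for 19439 gene entries made by the authors. The submitters' processing notes name CASAVA 1.8, HISAT2 2.0.4, Partek and mm10, without roles or order. The sources used here do not give the gene annotation or the handling of reads from repeated or overlapping genes. The labels' protocols name TruSeq RNA Sample Prep Kit V2, which does not mark strand. Raw counts are not used here: only 47.5 to 65.8% of low RPKM values came out as whole reads (within 0.05), so no count test was run.

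Values were taken to log2(RPKM + 1). The 11461 entries that reached 1 RPKM in 3 or more of the 12 libraries entered 1 limma 3.58.1 fit (R 4.3.3) of all 4 groups, with moderated variances and a mean-variance trend, and p-values were adjusted by the Benjamini-Hochberg method over all of them within each comparison. A call is an adjusted p under 0.05. The 5 comparisons were withdrawal in each line, p53-null against WT in each medium, and the difference of the withdrawal responses. Ratios within libraries were compared with exact permutation tests (SciPy 1.17.1, Python 3.11.15). Promoter windows are from RefSeq and gene spans from the GENCODE M21 annotation of GRCm38.

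The members and lists were chosen with earlier results of these data known. Values by library were given for up to 14 members with called changes of at least 0.5 in a withdrawal comparison or in the difference of responses, by size, and for their listed partners. Up to 5 called members in each direction were named for each comparison of the lines, and a few called genes for each further list. Some genes of these lists are counted but not reported here by name. Alternatives were a pseudocount of 0.1, no filter, libraries rescaled to one sum, median centring, quantile normalization, a replicate block, only the compared groups in the fit, no mean-variance trend, the size limit of 0.5 and each library left out in turn. RPKM depends on the composition of each library. The 3 scalings show how far the results moved with the scaling. Each makes the sums, medians or distributions of the libraries equal, so they cannot test composition itself.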

Additional observations from a re-analysis of the deposited data

Results flagged for a closer look

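The change on glutamine withdrawal differed between WT and p53-null, by the limma test of the difference itself, for 31 of the 32 tested members, with adjusted p up to 0.0023. All tested genes were also called often in this comparison, 38.4% higher and 46.4% lower in WT. Values are the log2 change in WT minus that in p53-null. Among genes of citrate, the difference was -1.67 for Slc25a1, -0.38 for Acly, -0.29 for Aco1 and 0.17 for Cs. For the isocitrate dehydrogenases it was 0.92 for Idh3g, 0.47 for Idh3a, 0.13 for Idh3b, -0.26 for Idh1 and -0.11 for Idh2. The difference for Idh1 was smaller, -0.14, with a pseudocount of 0.1, and its folds of 5.61 in WT and 5.17 in p53-null lie close together. Between 2-oxoglutarate and succinate it was 1.02 for Dld, -0.46 for Sucla2, -0.40 for Suclg1, -0.20 for Dlst, -0.14 for Suclg2 and -0.11 for Ogdh. Of succinate dehydrogenase, it was 0.30 for Sdhb, 0.14 for Sdha and -0.24 for Sdhc. For fumarase and malate it was -0.63 for Mdh1, -0.46 for Fh1, 0.35 for Mdh2 and 0.31 for Slc25a11. For pyruvate entry it was 0.68 for Pdha1, 0.37 for Pdhb, 0.28 for Mpc1, 0.24 for Dlat and -0.16 for Mpc2. For carboxylation and the malic enzymes it was 1.30 for Pck2, 0.57 for Me2, 0.47 for Me1 and -0.79 for Pcx.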

How the results depend on the processing

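Of the members' log2 changes recomputed under the alternatives, 3093 kept their direction and their side of the threshold, 31 lost the call, 8 gained it and 36 reversed. All values here are log2 changes, from limma for genes and from RPKM without the added 1 for the ratio Mpc1/Mpc2. The reversals came with the scaling of the libraries or with 1 library left out, and why a scaling turned a given gene was not tested. In WT withdrawal, quantile normalization gave Idh3b -0.049 and Mpc1 -0.115, and rescaling to one sum gave Mpc1 -0.002. In p53-null withdrawal, median centring and quantile normalization gave Aco1 -0.056 and -0.098, Idh3a -0.043 and -0.06, Dlst -0.038 and -0.051, Suclg1 -0.066 and -0.069, Pdhb -0.014 and -0.012, and Dlat -0.089 and -0.139, and quantile normalization gave Mdh2 0.058. Between the lines in complete medium, Dlst was -0.011 with median centring, Mdh1 0.052 both with rescaling and with quantile normalization, and Pdhb 0.02 with rescaling. In glutamine-free medium, rescaling gave a median over the members of 0.006, Slc25a1 0.107, Slc25a11 0.01 and Dlat 0.002, and median centring gave Acly -0.06, Idh3a -0.114, Sucla2 -0.021 and Sdhc -0.037. For the difference of the responses, Ogdh was 0.076 with quantile normalization and Sdhd 0.083 with median centring. With 1 library left out, the WT change ranged from -0.009 to 0.041 for Mpc1, from -0.024 to 0.008 for Mpc2 and from -0.01 to 0.058 for the log2 ratio Mpc1/Mpc2. The difference between the lines in glutamine-free medium ranged from -0.054 to 0.007 for Slc25a1, and the difference of the responses from -0.042 to 0.012 for Sdhd; none of these 5 was called with all libraries. The size limit of 0.5 lowered the members called from 30 to 11 in WT withdrawal, from 30 to 9 in p53-null withdrawal, from 31 to 9 and from 30 to 12 between the lines in complete and glutamine-free medium, and from 31 to 8 for the difference of the responses. Replicate numbers did not pair the libraries: same-numbered libraries correlated at -0.106 to 0.088 in their deviations from the group means over 18 pairs, and 3 of 12 libraries matched their own number best. With the replicate block, 30, 30, 31, 30 and 31 members were called in the 5 comparisons, the counts without it. The count test was not run because whole reads were not recovered. The small spread between libraries sets the number of calls, so small changes pass the test.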
